A study of Arabidopsis thaliana with 10 samples.

Results

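The genes described are cytochrome P450 genes of Arabidopsis thaliana, followed in whole shoots over 24 hr of dexamethasone (DEX). They were taken from the array's gene annotation as probe sets with 1 gene symbol made of CYP, the family digits and a subfamily letter, which gave 23 genes with 1 probe set each, of 13350 genes named on the array. Of these, 19 belong to the subfamily CYP71B, and the other members are CYP51G2, CYP78A9, CYP79A2 and CYP84A4. The RefSeq reference TAIR10.1 names 236 P450 genes, 36 of them CYP71B, so these 23 are a sample of the superfamily weighted towards that subfamily, and P450 genes with no named probe set were not analysed here. The members carry the locus and the P450 name in that reference, where CYP71B27 and CYP51G2 are annotated as transcribed pseudogenes.

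Every group was shr-2 mutant with the transgene pSHR:SHR-GR, which puts the transcription factor SHORT-ROOT, fused to a glucocorticoid receptor, under SHORT-ROOT's own promoter, and DEX lets the fusion enter the nucleus. The control group was sampled at 0 hr and is labelled as control, although its sample titles name the DEX dose too, and it is taken here as untreated. The other groups were sampled after 3, 6, 12 and 24 hr of 10 µM DEX, with 2 arrays per group and 10 in all. Shoots were studied at 10 days after germination, DEX having been given at 10 days for the shorter treatments and at 9 days for the 24 hr treatment. No shoots without the transgene and no mock-treated shoots at the DEX times were analysed here, so DEX, SHORT-ROOT activity, time of day and handling cannot be told apart in any comparison with 0 hr. All these comparisons share the control arrays. In whole shoots, fewer cells of a type and less RNA per cell cannot be told apart.

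Cytochrome P450 enzymes hold a heme whose iron activates molecular oxygen, and most of them insert 1 oxygen atom into a substrate with electrons passed on by a P450 reductase in the endoplasmic reticulum. Plants use them to make and to break down hormones, sterols, pigments, cuticle lipids and defence compounds. CYP71B is a large subfamily that arose partly by tandem duplication. Its best-known enzyme, CYP71B15 or PAD3, makes the defence compound camalexin and had no named probe set here. A substrate is given below only for members whose role is well established.

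Values are MAS5 signals on a linear scale. Median signals of the arrays ran from 181.5 to 191.5. The 3 hr arrays had the lowest, 184.4 and 181.5, and all other arrays lay at 188.3 or above. Replicates of a group correlated at 0.9858 to 0.9909 across probe sets on the log2 scale. The best correlation of an array with an array of another group ran from 0.9824 to 0.9906, and for 12 hr replicate 1 and 24 hr replicate 2, at 0.9906 each, it was above that with their own replicate (0.99 and 0.9887). The 3′ to 5′ signal ratio of the GAPDH control ran from 1.81 to 2.5 over the 10 arrays, that of ubiquitin from 2.43 to 3.07 and that of actin from 12.7 to 28.6, with 28.6 and 18.7 on the 6 hr arrays and 20 and 12.7 on the 24 hr arrays. Of the 18 shoot markers and 16 root markers looked up, 2 and 3 had a named probe set. RCA, Rubisco activase, had signals of 18805 to 25490.1, and at 6 hr both arrays were below the control (log2 difference -0.35, adjusted p = 0.0664 by limma). PORB, a chlorophyll synthesis enzyme, had 5345 to 8966 and was higher by limma at 3 hr (0.49, adjusted p = 0.00551), 6 hr (0.6, adjusted p = 0.00135) and 12 hr (0.56, adjusted p = 0.00824). The part of these shoot markers in the P450 results was not tested. The root-hair expansin gene EXPA7 and the peroxidase gene AT5G66390 stayed at or below 21.5 on every array. The third root gene, EXPA18, had signals of 85.2 and 82.5 at 0 hr and 30.8 and 10 at 6 hr, and the summed signal of the 3 root markers ran from 101 to 105 at 0 hr, from 63.2 to 73.9 at 3 hr and from 19.6 to 35.1 at 6 hr.

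Of the 23 P450 genes, 14 had a mean signal of at least 44.8, the 30th percentile over the array, and 9 had a lower mean and are called dim. Signals of different probe sets depend on the probes as well as on transcript level, so genes are not ranked by signal. Of the dim genes, 8 stayed between 0.605 and 27.1 on every array and passed no comparison. These are CYP71B16, CYP71B21, CYP71B25, CYP71B27, CYP71B30P, CYP71B31, CYP51G2 and CYP79A2. Signals this low follow transcript level poorly, and the standard errors of the log2 differences of the 9 dim genes at 3 hr ran from 0.25 to 0.38. CYP71B27, for example, had 4.4 and 6.26 at 12 hr and 25.9 and 19.9 at 24 hr, without overlap (log2 difference 0.86, SE 0.25, adjusted p = 0.259 by limma). CYP71B25 had 4.96 and 3.6 at 0 hr and 24.5 and 16 at 3 hr, without overlap (log2 difference 0.83, SE 0.33, adjusted p = 0.165 by limma).

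**Figure D1:**
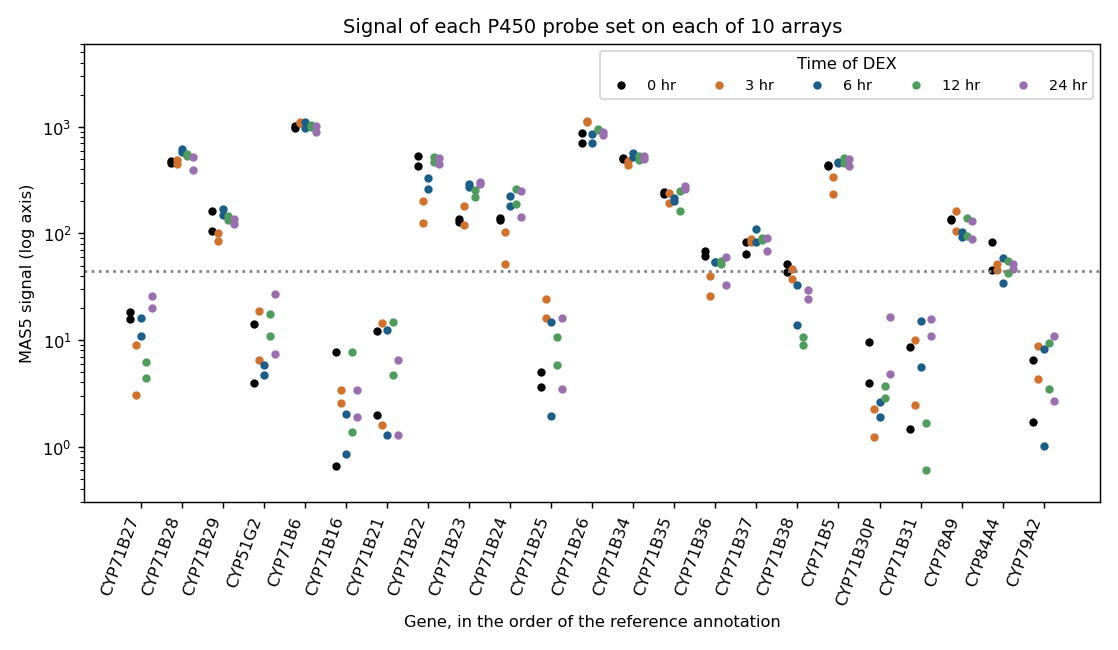
MAS5 signal (log axis) of the 23 P450 probe sets on each of the 10 arrays, with 1 point per array coloured by time of DEX; the dotted line marks the 30th percentile over the array, 44.8. The dim genes lie below the line on all arrays, except CYP71B38, which reaches 51.5, and CYP71B22 shows its 3 hr and 6 hr points apart from the rest.

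Differences were tested with limma on log2 of the signal plus 16, fitted to all 22746 probe sets, and a gene is said to have changed where the Benjamini-Hochberg adjusted p over all probe sets was below 0.05. By the moderated F test over the 4 DEX times, 6 of the 23 genes changed (26.1%), against 13.2% of all probe sets. They were CYP71B5, CYP71B22, CYP71B23, CYP71B24, CYP71B26 and CYP71B38. The first 5 of these are among the 14 brighter genes (35.7%), where the share among all probe sets that bright was 18.1%. With 23 genes chosen by name, the difference from the background was not tested. All 6 are CYP71B genes, as are 19 of the 23 members. Of the 4 members outside CYP71B, 0 changed by limma's F test, and 0 had an unadjusted p below 0.05 in it. CYP51G2 and CYP79A2 among these were dim, and a difference between CYP71B and the others was not tested.

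**Figure D2:**
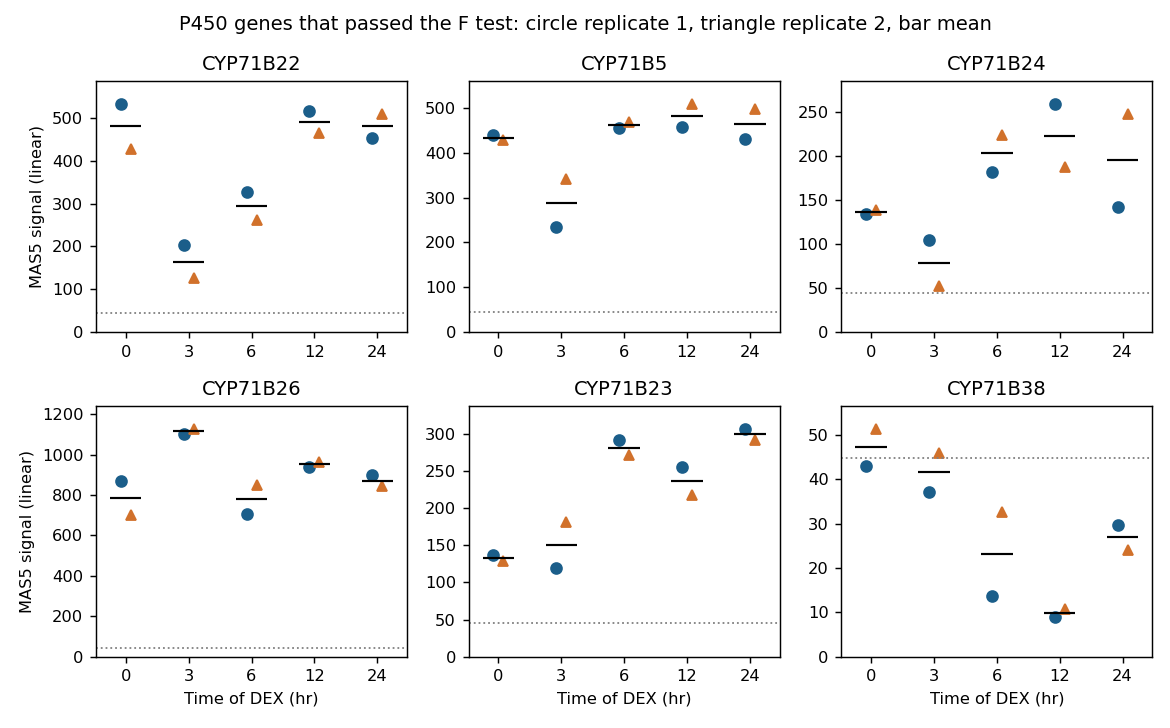
MAS5 signal (linear axis) of the 6 genes that passed the F test, by time of DEX; circles are replicate 1, triangles replicate 2, black bars the mean of the 2 arrays, and the dotted line the 30th percentile (44.8). CYP71B22, CYP71B5 and CYP71B24 are lowest at 3 hr, CYP71B26 is highest at 3 hr, CYP71B23 is higher from 6 hr on, and CYP71B38 is lowest at 12 hr.

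After 3 hr of DEX, 3 of the 23 P450 genes had changed, against a background of 8.22% of all probe sets. CYP71B22 and CYP71B5 were lower (4.31% of all probe sets were lower) and CYP71B26 was higher (3.91% were higher). The median log2 difference of the 23 genes was -0.07 and that of all probe sets -0.03, and the median of the 14 brighter genes was -0.14, with 5 of the 14 above 0. At an unadjusted p below 0.05 there were 8 genes. No share of all probe sets was worked out for the unadjusted counts, here or below, so they are not set against a background.

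CYP71B22 was lower at 3 hr. Its signal was 533 and 428 at 0 hr, 203 and 126 at 3 hr, 328 and 263 at 6 hr, 517 and 465 at 12 hr, and 453 and 509 at 24 hr. The 3 hr arrays lie below all others and the 6 hr arrays lie between them and the control, with no overlap, while the 12 and 24 hr arrays overlap the control. From a mean of 480.2 ± 74.1 to 164 ± 54.1 (SD, n = 2 arrays each), it was 2.8-fold lower at 3 hr by limma (log2 difference -1.49, SE 0.19, adjusted p = 0.000799). This was the call at 3 hr that held in every one of the 10 fits without 1 array, at -1.8 to -1.17.

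At 6 hr the log2 difference of CYP71B22 from 0 hr was -0.67 (SE 0.19), with an adjusted p of 0.0508 by limma, just outside the threshold. This difference passed when either 3 hr array was left out, which leaves the estimate as it was. It did not pass when any other array was left out, at estimates of -0.83 to -0.52. The 6 hr level was 0.81 above that at 3 hr on the log2 scale (adjusted p = 0.0226 by limma), a call that ended when 3 hr replicate 2 (0.5) or 6 hr replicate 1 (0.66) was left out. The level at 12 hr was 0.71 above that at 6 hr, which did not pass (adjusted p = 0.0976). It was 1.52 above 3 hr (adjusted p = 0.000691) and 0.04 from the control, with a 95% interval of -0.38 to 0.46.

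CYP71B5 was lower at 3 hr and at no other time. Its signal was 439 and 428 at 0 hr, 234 and 342 at 3 hr, and between 431 and 509 on the 6 arrays of the later times. Both 3 hr arrays are below every other array, but they differ from each other by more than any other pair of this gene. The log2 difference at 3 hr was -0.59 (SE 0.15, adjusted p = 0.035 by limma). It was -0.33 (adjusted p = 0.172) without 3 hr replicate 1. Leaving out control replicate 1 (-0.57), control replicate 2 (-0.61) or any array of 6 or 12 hr (-0.59 each, adjusted p = 0.0525 to 0.057) also ended the call, as did scaling the arrays to a common median (-0.53, adjusted p = 0.0567). From 3 to 6 hr CYP71B5 rose by 0.68 (SE 0.15, adjusted p = 0.0167 by limma). That rise lost its call without 3 hr replicate 1 (0.42), 6 hr replicate 1 (0.7) or 6 hr replicate 2 (0.66).

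CYP71B24 passed the F test and the step from 3 to 6 hr, without passing any comparison with 0 hr. Its signal was 134 and 139 at 0 hr, 104 and 51.8 at 3 hr, 182 and 224 at 6 hr, 259 and 187 at 12 hr, and 142 and 248 at 24 hr. The arrays of 3 hr are below the control and those of all later times are above it, though the later replicates spread widely. The log2 difference from 0 hr was -0.76 at 3 hr (SE 0.29, adjusted p = 0.152) and 0.51 at 6 hr (SE 0.29, adjusted p = 0.335) by limma. Between 3 and 6 hr it rose by 1.27 (SE 0.29, adjusted p = 0.0208 by limma), which became 0.86 (adjusted p = 0.134) without 3 hr replicate 2. Leaving out a 6 hr array also ended the call, at 1.41 for replicate 1 (adjusted p = 0.0695) and 1.13 for replicate 2 (adjusted p = 0.128).

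CYP71B26 ran the opposite way. Its signal was 868 and 701 at 0 hr, 1101 and 1129 at 3 hr, 708 and 852 at 6 hr, 937 and 965 at 12 hr, and 897 and 843 at 24 hr. The 3 hr arrays are above all others, and the 6 hr arrays cover nearly the same range as the control. It was 1.42-fold higher at 3 hr (log2 difference 0.51, SE 0.11, adjusted p = 0.0179 by limma) and fell by 0.51 from 3 to 6 hr (adjusted p = 0.0148). The rise lost its call when control replicate 2 was left out (0.35, adjusted p = 0.13). The same held for each 3 hr array, at 0.52 for replicate 1 (adjusted p = 0.0708) and 0.49 for replicate 2 (adjusted p = 0.0954). The later fall missed the threshold at -0.38 (adjusted p = 0.129) when 6 hr replicate 1 was left out, and at -0.53 and -0.5 when 3 hr replicates 1 and 2 were.

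After 6 hr of DEX, 1 of the 23 genes differed from 0 hr by limma, against 9.36% of all probe sets, and 4 did at an unadjusted p below 0.05. The gene was CYP71B23, which was higher (5.17% of all probe sets were higher). Its signal was 137 and 129 at 0 hr, 120 and 181 at 3 hr, 291 and 271 at 6 hr, 255 and 218 at 12 hr, and 307 and 291 at 24 hr. The 3 hr arrays fall on either side of the control, and the 6 arrays from 6 hr on are all above the 4 earlier ones.

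From 133 ± 6.15 at 0 hr to 281 ± 13.6 at 6 hr (SD, n = 2 each), CYP71B23 rose 1.99-fold (log2 difference 1, SE 0.17, adjusted p = 0.00392 by limma), a call kept in all 10 fits without 1 array. It was 0.76 above the control at 12 hr (SE 0.17, adjusted p = 0.0579), just outside the threshold, and 1.08 above it at 24 hr (SE 0.17, adjusted p = 0.0141). The 12 hr difference passed when either 3 hr array was left out, which leaves the estimate as it was. It did not pass when any other array was left out, at estimates of 0.65 to 0.86. At 24 hr the estimate stayed between 1.04 and 1.12 without 1 array, but the call ended when any of the 4 arrays compared was left out. The values were 1.12 for control replicate 1 (adjusted p = 0.0924) and 1.04 for control replicate 2 (adjusted p = 0.117), then 1.04 for 24 hr replicate 1 (adjusted p = 0.106) and 1.12 for 24 hr replicate 2 (adjusted p = 0.0535). The step from 3 to 6 hr was 0.86 (adjusted p = 0.00955). It was 0.59 (adjusted p = 0.0605) without 3 hr replicate 1 and 0.81 (adjusted p = 0.0771) without 6 hr replicate 1. The drop of the root marker EXPA18 at 6 hr, by 1.52 on the log2 scale (adjusted p = 0.00599 by limma), goes with this time, and its part in the results at 6 hr was not tested.

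Between 3 and 6 hr, 5 of the 23 genes changed by limma, against 9.14% of all probe sets, and all 5 were among the 14 brighter genes (35.7%, against 12.4% of probe sets that bright). CYP71B5, CYP71B22, CYP71B23 and CYP71B24 were higher at 6 hr than at 3 hr (5.16% of all probe sets were higher) and CYP71B26 was lower (3.99% were lower). This comparison shares the 3 hr arrays with the comparison of 3 hr and 0 hr, so a low 3 hr value gives a fall in one and a rise in the other. The count ran from 0 to 6 in the fits without 1 array and was 0 when 6 hr replicate 1 was left out, 3 for 6 hr replicate 2, and 2 for each of the 3 hr arrays.

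**Figure D3:**
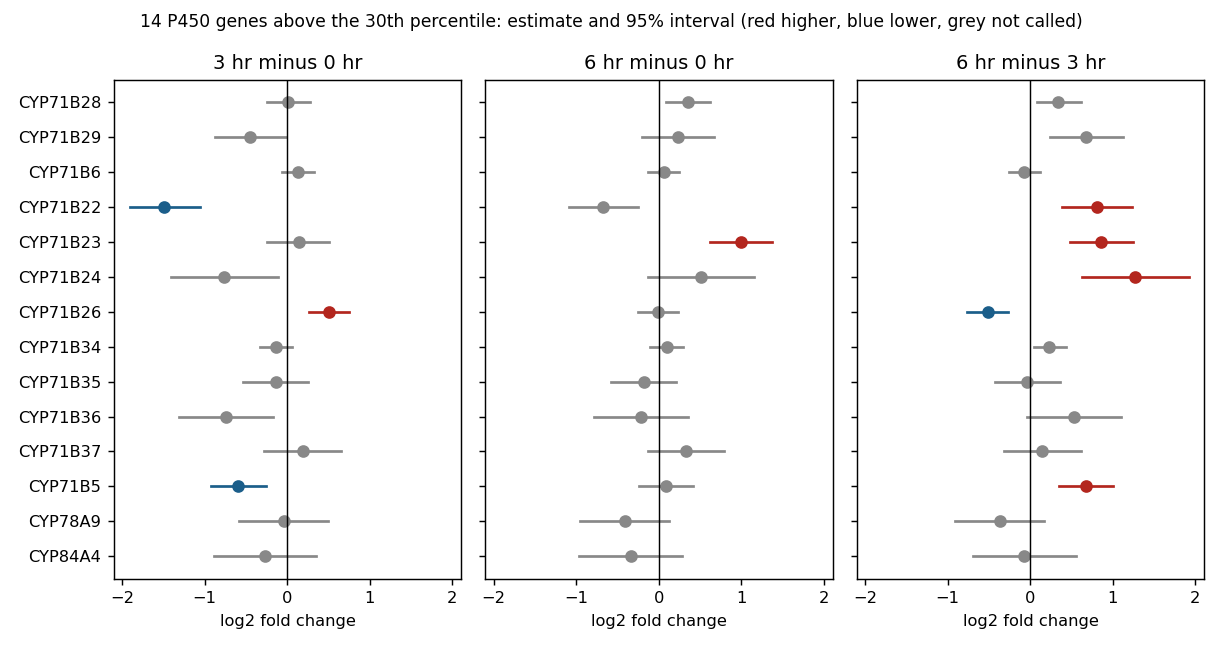
Log2 difference (horizontal axis, on the log2 of signal plus 16 scale) with its 95% interval from limma for the 14 P450 genes above the 30th percentile, at 3 hr against 0 hr, 6 hr against 0 hr and 6 hr against 3 hr; red is higher, blue lower and grey not called at an adjusted p of 0.05. CYP71B22 stands at -1.49 at 3 hr, CYP71B23 at 1 at 6 hr, and 4 genes are higher and 1 lower from 3 to 6 hr.

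At 12 hr 1 of the 23 genes differed from 0 hr, against 1.6% of all probe sets. The dim gene CYP71B38 had signals of 43 and 51.5 at 0 hr, 37.2 and 46 at 3 hr, 13.7 and 32.6 at 6 hr, 9.06 and 10.7 at 12 hr, and 29.7 and 24.2 at 24 hr. The control and 3 hr arrays overlap, and the 12 hr arrays are the lowest. It was lower at 12 hr (log2 difference -1.29, SE 0.27, adjusted p = 0.0443 by limma; 0.33% of all probe sets were lower). With offsets of 1 and 64 in place of 16 the difference was -2.15 (adjusted p = 0.0523) and -0.59 (adjusted p = 0.043), so its size is not fixed by these data. The call was lost in 8 of 10 fits without 1 array, namely without control replicate 1 (-1.38) or 2 (-1.19), 12 hr replicate 1 (-1.24) or 2 (-1.33), and either array of 3 or 24 hr (-1.29 each).

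At 24 hr CYP71B23 was the 1 gene that differed from 0 hr, against 0.958% of all probe sets (0.717% were higher). Between 6 and 12 hr 0 of the 23 genes passed by limma, against 2.39% of all probe sets, with 2 at an unadjusted p below 0.05. Between 12 and 24 hr 0 passed, against 0.114%, with 4 at an unadjusted p below 0.05. Set against 3 hr in comparisons added after the values were seen, 4 genes differed at 12 hr (6.69% of all probe sets) and 4 at 24 hr (10.2%). At 12 hr 3 were higher (3.94% of all probe sets), CYP71B5, CYP71B22 and CYP71B24, and CYP71B38 was lower (2.75%). At 24 hr the genes were CYP71B5, CYP71B22, CYP71B23 and CYP71B24, all higher than at 3 hr (5.49% of all probe sets), by 0.68, 1.49, 0.95 and 1.18 on the log2 scale. In the remaining added comparison, 24 hr against 6 hr, 0 of the 23 genes passed by limma, and its share of all probe sets is not given here.

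The choice by name did not use the position of the genes. It is not independent of position, because most members are CYP71B genes and this subfamily arose partly by tandem duplication. In the order of genes in the reference, 17 of the 23 lie in 4 runs of 3 or more members with at most 5 gene steps between neighbours, and 6 lie alone. The longest stretch, from CYP71B16 to CYP71B37, covers 24 annotated genes, 18 of which are P450 genes and 11 of which are members here. It divides into CYP71B16 to CYP71B24 and CYP71B25 to CYP71B37, with 6 genes between them. Of the 6 genes that changed, CYP71B22, CYP71B23 and CYP71B24 lie in the first part of that stretch and CYP71B26 in the second. The other members in the first part, CYP71B16 and CYP71B21, were dim. CYP71B5 lies in a run with CYP71B30P and CYP71B31, and CYP71B38 lies alone.

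CYP71B22 and CYP71B23 are directly adjacent in the gene order, and their log2 differences from 0 hr were -1.49 and 0.14 at 3 hr and -0.67 and 1 at 6 hr, while both were higher at 6 than at 3 hr (0.81 and 0.86). No difference between neighbours was tested. CYP71B21, next to CYP71B22 on the other side, was dim on all arrays. In the second part CYP71B26 rose at 3 hr, whereas CYP71B34, CYP71B35, CYP71B36 and CYP71B37, which follow one another, did not pass. They stood at -0.13, -0.14, -0.74 and 0.19 at 3 hr. CYP71B36 had 61.5 and 67.9 at 0 hr and 25.7 and 39.6 at 3 hr, without overlap, yet its adjusted p was 0.112 by limma. The probe sets of all 23 genes are of the type designed for a single transcript, and cross-hybridization between close CYP71B copies was not tested.

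**Figure D4:**
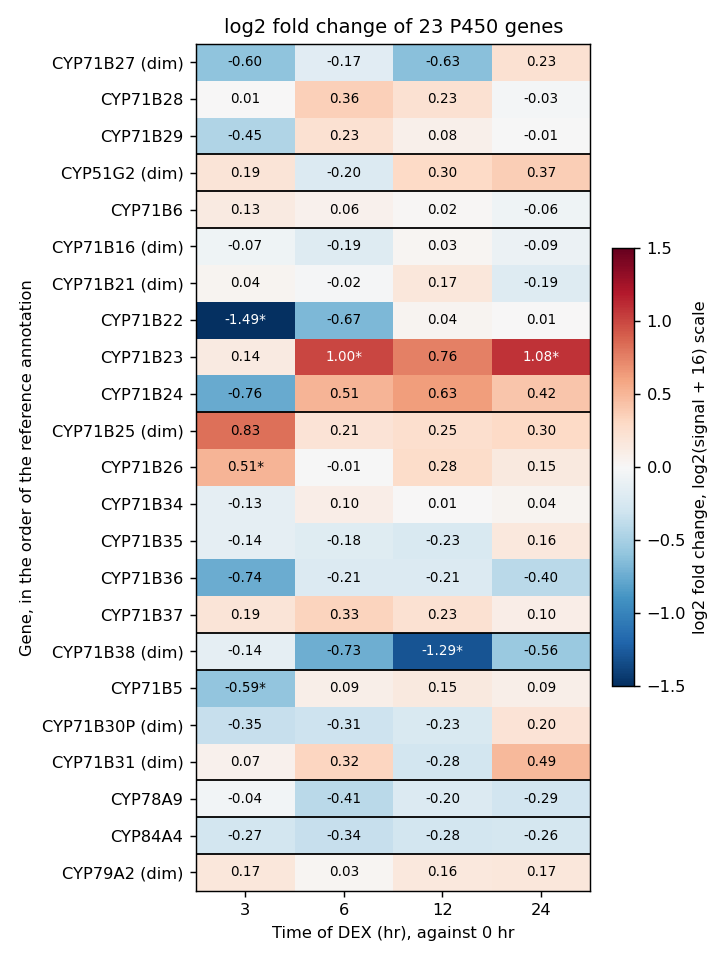
Log2 differences from 0 hr (colour and printed value, on the log2 of signal plus 16 scale) of the 23 P450 genes at 3, 6, 12 and 24 hr of DEX, in the order of the reference annotation, with lines between runs of neighbouring genes; an asterisk marks an adjusted p below 0.05 and "dim" a mean signal below the 30th percentile. The adjacent CYP71B22 and CYP71B23 stand at -1.49 and 0.14 at 3 hr and at -0.67 and 1 at 6 hr, and 0.14 and -0.67 carry no asterisk.

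Among the 14 brighter genes, 9 did not pass the F test, and their log2 differences from 0 hr ran from -0.74 to 0.36 over the 4 times. CYP71B6, which converts indole-3-acetonitrile to indole-3-carbaldehyde in the metabolism of indole defence compounds, had signals from 905 to 1119 on the 10 arrays. Its difference at 3 hr was 0.13, with a 95% interval of -0.06 to 0.32, and that of CYP71B34 was -0.13, with an interval of -0.33 to 0.06. CYP71B28 had 476 and 455 at 0 hr and 624 and 577 at 6 hr, and its difference of 0.36 had an adjusted p of 0.0951 by limma. That gene passed when either 24 hr array was left out, which leaves the estimate as it was, and not when any other array was. CYP71B29, next to it in the gene order, went from 101 and 84.5 at 3 hr to 148 and 168 at 6 hr. The log2 difference was 0.68 (adjusted p = 0.0574 by limma). It passed when either control array was left out, which leaves the estimate as it was. It did not pass when any other array was left out, at estimates of 0.57 to 0.79.

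The members outside CYP71B have different roles. CYP78A9 belongs to the family of KLUH, which promotes organ growth, and is known for its effect on fruit and seed size. Its signals ran from 88.3 to 162, and its largest difference was -0.41 at 6 hr (SE 0.24, adjusted p = 0.351 by limma). CYP84A4, an enzyme in the synthesis of the pyrone compounds called arabidopyrones, had signals from 34.5 to 82.3 and differences of -0.34 to -0.26. CYP79A2 turns phenylalanine into its oxime on the way to benzylglucosinolate, and CYP51G2 is a relative of the sterol demethylase gene CYP51G1. Both were dim, at or below 11 and 27.1 on every array, as was CYP71B31, which oxidizes linalool in flowers, at or below 15.6.

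Of 141 loci in 8 lists of P450 partners and of pathways in which P450 enzymes act, 12 had a named probe set. None of the 23 listed P450 genes known by another name, such as AOS and DWF4, was among them, and the only locus of the partner list was AT3G02280, a diflavin reductase of the same protein class as P450 reductases. AT3G02280 ran from 140.5 to 229 and did not change. Of the 12 genes, 4 rose and 2 fell at 3 hr, 5 rose at 6 hr, 4 at 12 hr and 2 at 24 hr, and the rest did not pass at each time. Of all probe sets, 8.22%, 9.36%, 1.6% and 0.958% changed at these times. The median difference of the 12 genes was 0.22 at 3 hr and 0.35 at 6 hr, against -0.03 and -0.05 for all probe sets. These counts and medians include 3 jasmonate genes listed with their earlier values known, all called higher at 3, 6 and 12 hr. The comparison with all probe sets is therefore not independent of that choice.

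Among the 4 named genes of the jasmonate list, 3 encode oxygenases that hydroxylate jasmonic acid, a reaction outside the P450 family. These were listed with their earlier values known, so their direction is not independent evidence. JRG21 rose from 45.1 and 59.1 at 0 hr to 912 and 866 at 3 hr, and was at 92.6 and 66.6 at 24 hr. OPCL1, a ligase of jasmonate synthesis, rose at 6 hr by 0.73 (SE 0.12, adjusted p = 0.0036 by limma).

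Both named genes of the glucosinolate list changed, in opposite directions at 3 hr. BCAT4, an aminotransferase that starts the synthesis of methionine-derived glucosinolates, fell by 0.82 at 3 hr (SE 0.11, adjusted p = 0.000764), with signals of 3754 and 3435 at 0 hr and 2210.4 and 1847 at 3 hr. At 6 hr it stood at 2798 and 2813, and at 12 hr at 4123 and 4074. UGT74B1, the glucosyltransferase of the pathway, was higher at all 4 times by limma, by 0.33, 0.43, 0.57 and 0.51 on the log2 scale. In the phenylpropanoid list DFR, dihydroflavonol reductase, fell by 0.68 at 3 hr and was 0.7 above that level at 6 hr. Its signals were 5108 and 4937 at 0 hr, 3194 and 3085 at 3 hr and 4962 and 5258 at 6 hr. At 12 hr DFR was lower again than at 6 hr, at 4117 and 3981 (log2 difference -0.33, adjusted p = 0.0385 by limma). Against 0 hr the 12 hr difference of -0.31 did not pass (adjusted p = 0.0686), and at 24 hr the signals were 5386 and 4911. HCT, an acyltransferase of lignin synthesis, did not change (-0.02 at 3 hr). BRL1 of the brassinosteroid list, UGT71B6 of the abscisic acid list and WSD1 of the cutin and wax list had signals of at most 78.8 and did not pass at any time.

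A probe set listed with the symbols CYP71B20 and CYP71B19 is no member because its gene is not single. Both genes lie between CYP71B16 and CYP71B24 in the gene order. The probe set read 1029 and 958 at 0 hr, 860 and 827 at 3 hr, and 1218 and 1122 at 6 hr. It was 0.46 higher at 6 hr than at 3 hr (adjusted p = 0.00402 by limma), and -0.23 at 3 hr against 0 hr did not pass (adjusted p = 0.104). CYP718, a P450 gene without a subfamily letter, was at or below 3.24 on every array.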

How the data were processed

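RNA of whole shoots was hybridized to Affymetrix ATH1 arrays. The deposited values are signal intensities, which the authors computed with the MAS5 method. The submitters' processing notes name Affymetrix Expression Console 1.1. Each array's mean without the top and bottom 2% of values was 500, a common level set before deposition. The background method and detection calls were not given in the sources used here. Of 22810 probe sets, 64 controls were left out. The platform annotation gave several symbols for 503 tested probe sets and did not list 8730.

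Groups came from the sample labels, and the design text calls the 2 arrays of a group biological replicates. An offset of 16 was added before log2, and limma 3.58.1 (R 4.3.3) was run with 1 mean per group over the 10 arrays, an intensity trend, no further normalization and no replicate block (5 residual and 5.86 prior degrees of freedom). Two-sided p-values were adjusted by Benjamini-Hochberg across the 22746 probe sets. The precision is limited by 2 arrays per group, where an exact permutation test between 2 groups could not reach 0.05. The code was tested on simulated data.

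Every member that passed a test was named, with the largest rises and falls among brighter members, members with established roles and called pathway genes. Members and lists were chosen with earlier results of these data known. Alternatives were other offsets, quantile and common-median scaling, a filter on the lowest 30% of probe sets, a replicate block, no trend, only the arrays compared, and leaving out each array.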

Additional observations from a re-analysis of the deposited data

Results flagged for a closer look

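The levels at 3 hr and at 6 hr differed for 5 P450 genes by limma's test of 6 hr against 3 hr, against 9.14% of all probe sets. The level at 6 hr minus that at 3 hr was 0.81 for CYP71B22, 0.86 for CYP71B23, 1.27 for CYP71B24, -0.51 for CYP71B26 and 0.68 for CYP71B5 on the log2 scale. DEX, SHORT-ROOT activity, time of day and handling cannot be told apart in this comparison either. With 2 arrays per group, single arrays of a group could not be examined for standing apart.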

How the results depend on the processing

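The P450 calls against 0 hr and between 3 and 6 hr kept their direction under every alternative in which the gene was fitted. The low filter left out CYP71B38. The estimate cannot change with the low filter, the replicate block, no trend, only the arrays compared, or an array outside the comparison left out. Direction could therefore change only with other offsets, other scaling or a compared array left out. The differences against 3 hr at 12 and 24 hr, those between 6 and 24 hr and those of genes outside the 23 had no alternative run. The count of changed P450 genes at any time was 6, was 2 without the intensity trend, and ran from 2 to 6 without 1 array. It was 3 without control replicate 1, control replicate 2, 3 hr replicate 1, 3 hr replicate 2 or 6 hr replicate 1, and 2 without either 12 hr array, and CYP71B22 and CYP71B23 were called each time. At 3 hr the count of 3 was 1 without the trend and 1 with only the arrays compared, and 1 to 3 without 1 array, being 1 without control replicate 2 or 3 hr replicate 1. At 6 hr the count of 1 was 2 with an offset of 1 or 64, quantile or common-median scaling, the low filter or the replicate block, with CYP71B22 as the added gene, and 1 to 2 without 1 array. At 12 hr and at 24 hr the count of 1 was 0 without the trend and 0 with only the arrays compared, and 0 to 1 without 1 array, and at 12 hr it was also 0 with the replicate block. From 3 to 6 hr the count of 5 was 1 without the trend, 1 with only the arrays compared, and 0 to 6 without 1 array. From 6 to 12 hr the count of 0 was 1, CYP71B22, with the low filter or only the arrays compared, and 0 to 1 without 1 array, being 1 without either 3 hr array. CYP71B22 was also the added gene at 6 hr without either 3 hr array, and CYP71B28 without either 24 hr array. At 12 hr the called gene was not the same in every fit. It was CYP71B23 in place of CYP71B38 with an offset of 1 (adjusted p = 0.0454 by limma) or the low filter (adjusted p = 0.0158 by limma). The same held without either 3 hr array. Without 1 array a group is left with 1 array, assumed to vary like the others. The cause of these changes was not tested.

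The labels name no batch for the replicate numbers. The differences between replicates 1 and 2 correlated at -0.04 to 0.09 between groups over 10 pairs of groups. These values show no clear shift shared by number, but cannot tell whether arrays of equal number were handled together. With the replicate number as a block, the F test called 4 of the 23 genes, without CYP71B24 and CYP71B26, the adjusted p of CYP71B22 at 6 hr was 0.028 and that of CYP71B38 at 12 hr was 0.0509. The alternative of using all probe sets of a gene was not run, because each of the 23 genes had 1 probe set.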
